A study of Mus musculus with 4 samples.

Results

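Control-only intergenic regions are stretches of open chromatin that had an ATAC-seq peak in both AAV-GFP control libraries of the mouse paraventricular nucleus of the hypothalamus (PVH), no peak in either AAV-Cre library, and no protein-coding gene within 1 kb. Merging the 4 peak lists wherever peaks overlapped by 1 bp gave 65969 regions on chromosomes 1 to 19, and 3193 of them met the rule. They were thus chosen by the presence and absence of peaks in these same 4 lists and by distance to genes, so the contrast between the groups and the strength of the peaks are described here without a test.

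All 4 libraries came from 12-week-old mice with the genotype Otp fl/fl; Ai14, that is, loxP-flanked Otp alleles and a Cre-dependent fluorescent reporter, and the PVH was dissected 4 weeks after the virus was injected. Mice of 2 libraries had received AAV-GFP, and mice of the other 2 had received AAV-Cre, which removes Otp, which encodes a homeodomain factor needed for PVH neurons, in infected cells. The study asked where open chromatin lies near Mc4r and whether adult loss of Otp lowers accessibility near its targets. The labels name no promoter for the virus and no sort of infected cells, and do not say how many animals a library holds. Replicates may therefore be technical, and fewer cells of a type cannot be told apart from less open chromatin per cell.

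In ATAC-seq a transposase cuts DNA where nucleosomes are sparse, and peaks mark promoters, enhancers and insulators. Peaks far from genes are mostly enhancers and insulators in textbook accounts, and they differ more between cell types than promoters do. Enhancers can act on genes that are not the nearest one, so the nearest gene is used below only to say where a region lies.

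The control lists held 57682 peaks in AAV-GFP replicate 1 and 34100 in replicate 2, and the AAV-Cre lists held 23384 and 26612. Read depth is not given in the files. The deposited fold enrichment, the authors' ratio of signal to background at a peak's summit, was a whole multiple of a fixed step for 13.2% to 30.5% of peaks. The step was 0.466 for AAV-GFP replicate 1, 0.529 for replicate 2, and 0.539 and 0.552 for AAV-Cre. In MACS2, the peak caller named in the submitters' notes, 1 more fragment at a summit is worth less fold where background coverage is higher, and the library with the smallest step had the longest list. The steps of AAV-GFP replicate 2 and the AAV-Cre libraries lay close together, while their lists differed in length. Whether coverage has a part in which regions count as control-only was not tested. As a check of the tissue, 4 of 5 pan-neuronal marker genes had a peak within 1 kb of a gene end in every library. Of 8 markers of PVH neurons, AAV-GFP libraries had one at 5 and 4 (Sim1, Otp, Pou3f2 and Trh in both, Crh in replicate 1) and AAV-Cre libraries at 2 (Pou3f2 and Oxt) and 3 (Otp, Pou3f2 and Crh). The AAV-Cre replicate 2 list thus kept a peak at Otp, the targeted gene, which tests no deletion, and Oxt had a peak in AAV-Cre replicate 1 only. Avp and Arnt2 had none in any library, and none of 4 microglial or 4 endothelial markers had one. Of 5 astrocyte markers, 3 and 2 had one with AAV-GFP against 1 and 2 with AAV-Cre, and of 4 oligodendrocyte markers 2 and 2 against 0 and 1. The part of cell makeup in the regions below was not tested.

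Most of the 3193 regions lie where no transcript starts, but some coincide with the start of a long non-coding RNA (lncRNA), and for those the sequence can be shown. The RefSeq promoter window of a gene runs from 250 bases before to 50 bases after its start. Of the regions, 71 (2.22%) overlapped such a window of an lncRNA, against 7.44% of the 2797 intergenic regions that were open in all 4 libraries. The share was 5.05% for intergenic regions of the controls and 1 AAV-Cre library and 1.73% for Cre-only ones. Wider regions overlap a window more easily, and median width was 300 bp for control-only and 502 bp for shared regions. In 31 of the 71 regions both control summits lay inside the window and no AAV-Cre peak lay within 1 kb. The 4 with the best mean control rank are printed here, as examples chosen after their values were seen, to show open bases at a control-only region. Each is the part of the promoter window inside the region, 5′ to 3′ on the strand of the lncRNA, from RefSeq on GRCm38.p6, the same assembly as mm10. Capitals mark the bases from one control summit to the other with 10 bases to each side. At Gm51458 fewer follow the second summit, because the printed sequence ends there.
Gm51458: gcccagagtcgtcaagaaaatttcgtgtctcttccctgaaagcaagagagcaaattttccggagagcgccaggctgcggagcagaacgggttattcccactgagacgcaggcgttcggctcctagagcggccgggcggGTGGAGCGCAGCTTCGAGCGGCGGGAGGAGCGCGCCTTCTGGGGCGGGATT
Gm38899: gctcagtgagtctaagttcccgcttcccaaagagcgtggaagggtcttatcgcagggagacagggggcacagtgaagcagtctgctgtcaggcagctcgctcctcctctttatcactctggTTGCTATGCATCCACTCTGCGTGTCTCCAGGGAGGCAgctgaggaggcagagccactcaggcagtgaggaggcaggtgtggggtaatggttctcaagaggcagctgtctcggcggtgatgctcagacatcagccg
Gm42154: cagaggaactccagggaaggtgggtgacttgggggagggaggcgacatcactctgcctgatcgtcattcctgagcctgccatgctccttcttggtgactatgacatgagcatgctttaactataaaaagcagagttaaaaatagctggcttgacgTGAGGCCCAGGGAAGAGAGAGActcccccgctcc
Gm41022: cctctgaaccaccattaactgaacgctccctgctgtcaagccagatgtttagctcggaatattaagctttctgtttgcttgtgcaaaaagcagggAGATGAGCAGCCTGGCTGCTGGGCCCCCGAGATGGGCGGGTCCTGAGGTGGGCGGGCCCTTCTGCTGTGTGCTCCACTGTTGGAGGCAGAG
The first is chr7:127636975-127637163 on the plus strand at Gm51458, 21189 bp from Zfp629. The second is chr6:126514825-126515080 on the minus strand at Gm38899, 17470 bp from Kcna5, a potassium channel gene. The third is chr5:111473646-111473834 on the minus strand at Gm42154, 16515 bp from Mn1. The last is chr13:94306714-94306899 on the plus strand at Gm41022, 20882 bp from Scamp1, and Gm38653 starts there on the other strand.

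At 3 of these starts the rank percentile was stronger in AAV-GFP replicate 1, whose list is longer, than in replicate 2. At Gm42154 the percentiles were close (30.8 and 29.1). At Gm51458 the fold was 10 in AAV-GFP replicate 1 and 7.84 in replicate 2, at percentiles 18.3 and 33.9, with summits 9 and 48 bases after the start. At Gm38899 it was 10.6 and 7, at percentiles 16.6 and 42.7, with summits 59 and 75 bases before the start. At Gm42154 it was 7.72 and 8.59, and the summits lay 27 and 26 bases after the start, so the 2 controls differed by 1 base. Gm41022 had 9.22 and 7.33, at percentiles 22.5 and 38.5, with one summit 39 bases after and the other 31 bases before its start. A percentile of 0 is the strongest peak of a list by −log10 p, and folds of different lists are not on 1 scale. None of the 4 had a peak in either AAV-Cre library, where only peaks above the authors' cut are listed.

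GC and CpG content of these windows lay between those of lncRNA starts that were open in all 4 libraries and of those without a region. Over the 80 lncRNA windows that overlapped control-only regions, median GC content was 51.2% and the median ratio of observed to expected CpG was 0.344. Windows at intergenic regions shared by all 4 libraries (n = 249) had 55% and 0.48, and intergenic windows without any region (n = 6397) had 46.3% and 0.199. Each window was searched on both strands for 3 motifs, none of which contains another: TAATTA, a core bound by homeodomain factors, TGANTCA, bound by AP-1, and ACGTG, the core bound by dimers of Sim1 and Arnt2. TAATTA was in 5% of windows at control-only regions, 2.01% at shared regions, 9.32% at regions of the controls and 1 AAV-Cre library and 8.46% of intergenic windows without a region. It was in 6.67% of all 11311 lncRNA windows and 5.27% of all 31396 promoter windows, so the share at control-only regions was below that of lncRNA windows in general. TGANTCA was in 12.5%, 6.43%, 9.32%, 10.3%, 9.25% and 7.84% in the same order, and ACGTG in 18.8%, 29.7%, 16.1%, 15.8%, 17.3% and 19.7%. The counts behind the first group are 4, 10 and 15 windows, and a match is a string, not a bound site. Of the printed sequences, that at Gm42154 holds ACGTG and the others hold none of the 3 motifs.

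A second set of named transcripts lay in a gene desert of chromosome 7. Between Gm51483 and Ndn, an imprinted gene of the Prader-Willi region, 1234572 bp hold no protein-coding gene, and RefSeq places 13 hairpins of the miR-344 family there within 402187 bp. MicroRNAs are cut from hairpin transcripts and pair with messenger RNAs mainly through the seed, bases 2 to 8. Of all 3193 regions 4 overlapped a microRNA hairpin, 3 of them in this cluster, at Mir344d-3, Mir344-2 and Mir344f, and the last at Mir713 on chromosome 13, a share of 0.125% against 0.25% (7 regions) of shared intergenic regions. The mature sequences of the 3 miR-344 hairpins, from RefSeq with the seed in capitals, are shown so that the copies can be compared.
mmu-miR-344-5p: aGUCAGGCuccuggcuagauuccagg
mmu-miR-344d-3-5p: aGUCAGGCuagugguuauacucc
mmu-miR-344f-5p: aGUCAGUCuccuggcuggaguc
mmu-miR-344-3p: uGAUCUAGccaaagccugacugu
mmu-miR-344d-3p: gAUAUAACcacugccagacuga
mmu-miR-344f-3p: cUCUAGCCaggaccugacuac
The 5p strands of Mir344-2 and Mir344d-3 share the seed GUCAGGC, that of Mir344f has GUCAGUC, and the 3p strands have 3 different seeds. Such copies are alike in sequence, and the labels do not say how reads matching several copies were handled.

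The miR-344 copies differed in pattern although they sit side by side. At Mir344d-3 (region at 61726192 to 61726511) the control folds were 9.98 and 5.82. At Mir344-2 (61939982 to 61940543) it was 6.86 and 7.31, and at Mir344f (62046161 to 62046647) 6.06 and 6.44. None of these 3 regions had an AAV-Cre peak. Mir344 and Mir344g, which lie between these copies, had peaks in all 4 libraries. At Mir344 the deposited folds were 9.44 and 7.09 in the AAV-GFP lists, and 9.48 and 7.64 in those of AAV-Cre. At Mir344g they were 7.96 and 6.19, and 4.85 and 5.8. Mir344c lacked a peak in AAV-Cre replicate 1 only, Mir344i in AAV-Cre replicate 2 only, Mir344d-2 had 1 peak, from AAV-GFP replicate 1, and the other 5 hairpins had none. Over the whole desert 14 regions were shared by the controls, of which 6 were control-only and 3 were open in all 4 libraries. That is close to the shares given below for all intergenic regions (39.7%) and for intervals over 500 kb (47.4%). At Mir713 the control folds were 12.6 and 6.35. The cluster was picked after its values were seen.

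Across the genome, 39.7% of the 8048 intergenic regions shared by the controls had no AAV-Cre peak (95% Wilson interval 38.6 to 40.7). The share was 27% over all 27950 control-shared regions, 36% of 9685 inside genes and 8.59% of 10217 at gene ends, that is, within 1 kb of either end of a gene. Intergenic regions made up 42.3% of the 7554 control-only regions and 35.5% of all regions. The converse pattern, both AAV-Cre libraries and neither control, was met by 347 intergenic regions, 9.7% of the 3578 shared by the AAV-Cre libraries (4.86% over all positions). The lists differ in length. With each list cut to its 23384 strongest peaks, 22.5% of 4080 control-shared intergenic regions were control-only (919 regions). Of 3386 Cre-shared ones, 20.9% were Cre-only (709 regions). Cutting lists to 1 length draws these counts together by construction. The part of list length in the difference between 39.7% and 9.7% was therefore not tested. These shares come from the contrast that defines the regions, and intervals cover counting error only.

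Strength within the control lists separated the regions that were absent from the AAV-Cre lists from those that were kept. Each peak had its rank percentile by −log10 p in its own list, from 0 for the strongest to 100 for the weakest. Among intergenic control-shared regions, 0.946% of 423 with a mean control rank in the strongest 10% were control-only, 42.2% of 1200 with a mean rank from 40 to 50 and 78.1% of 96 from 90 to 100. The share was higher at weaker ranks at every position, apart from the 2 weakest classes at gene ends (56.6% and 55.6%), and in each rank class it was higher for intergenic regions than for gene ends. From 40 to 50 the share was 15.1% at gene ends and 33.8% inside genes. From 80 to 90 it was 69.7% for intergenic regions and 73.9% inside genes, so intergenic regions and regions inside genes stood in the opposite order there.

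**Figure D1:**
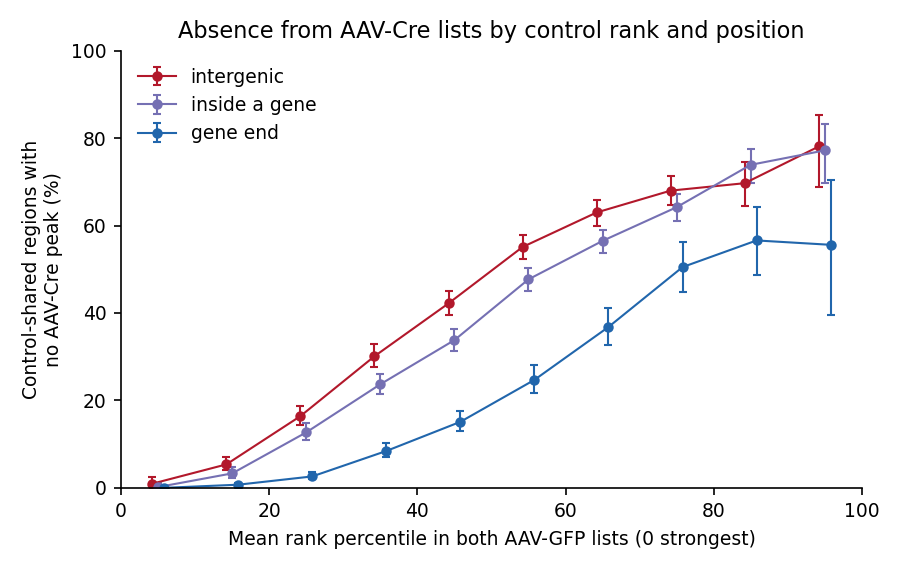
Share of control-shared regions without an AAV-Cre peak (y axis, %) by mean rank percentile in both AAV-GFP lists (x axis, 0 strongest, classes of 10), for intergenic regions, regions inside genes and regions at gene ends; points are shares and bars 95% Wilson intervals for counting error. The intergenic share climbs from 0.946% to 78.1%, above the gene ends in all classes.

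Control-only intergenic regions were of middle to low strength in both controls. The median fold was 6.06 in AAV-GFP replicate 1 (quartiles 4.91 and 7.46) and 5.29 in replicate 2 (4.74 and 6.35). Intergenic regions shared by all 4 libraries had medians of 8.58 and 7.5. The median rank percentile was 47.4 and 66, against 19.2 and 30.2 for shared regions. The percentile was the stronger one in AAV-GFP replicate 1 for 75.9% of control-only and 77.9% of shared regions. These percentiles are taken within lists of 57682 and 34100 peaks. A region in both lists thus tends to have a stronger percentile in the longer list, and percentiles do not say which replicate placed it higher. Only 2 control-only regions stood in the strongest 10% of both lists, while 1333 (41.7%) stood in the weaker part, past 50, of both. Across the 3193 regions the ranks in the 2 controls had a Spearman rho of 0.378, and across the 2797 shared regions 0.738. Each region is 1 point, all points share the same 2 libraries, and control-only regions span a narrower range of strength.

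**Figure D2:**
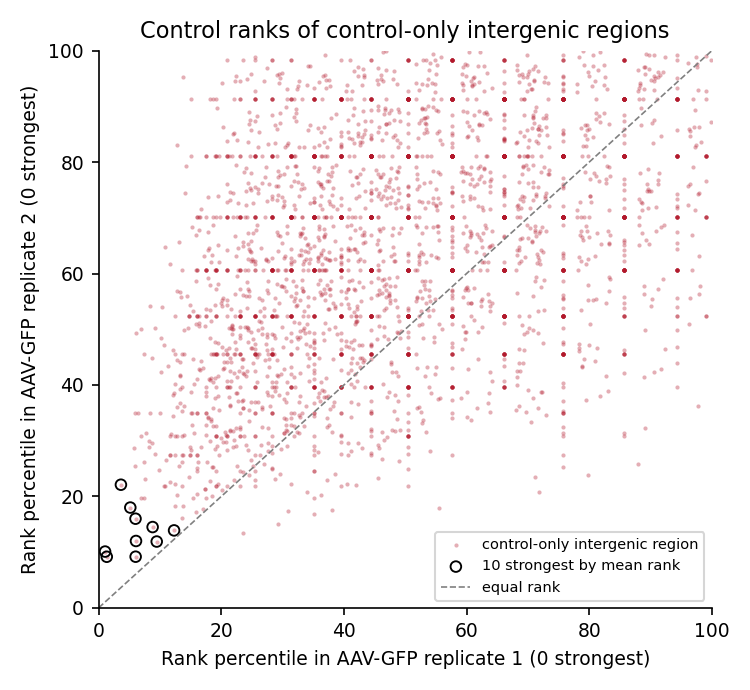
Rank percentile of each of the 3193 control-only intergenic regions in AAV-GFP replicate 1 (x axis) and replicate 2 (y axis), 0 being the strongest peak of a list; circles mark the 10 strongest by mean rank and the dashed line equal rank. Most points (75.9%) lie above the line, which marks equal percentiles in lists of different length and not equal places. Rows and columns of points are peaks that share a fold step and thus a rank.

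Width and summit distance of the regions depend in part on how regions were merged and chosen. Median width was 300 bp (quartiles 237 and 382), against 502 bp for regions shared by all 4 libraries and 328 bp for Cre-only intergenic regions. Regions of 1 library alone had medians from 163 to 199 bp. A region spans all its merged peaks, so regions of more libraries tend to be wider by construction. The summits of the 2 controls lay a median of 52 bp apart (19 and 93), close to the 42 bp (10 and 80) of shared regions. The rule limits this distance, since both control peaks had to fall in 1 merged region. The authors' deposited group list for the controls held a peak at 3181 of the 3193 regions (99.6%), and their deposited AAV-Cre group list at 5. These group lists come from the same libraries that define the regions, so the agreement is no separate support. The control list held 100% of the regions shared by all 4 libraries. The AAV-Cre list held only 12 of 2058 regions (0.583%) of the controls and 1 AAV-Cre library. For control-only regions the nearest AAV-Cre peak lay a median of 23766 bp away. It lay within 500 bp for 122 regions (3.82%) and more than 50 kb away for 938 (29.4%).

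The strongest control-only intergenic regions were the 10 with the best mean control rank, with folds of 10.9 to 28.4 in AAV-GFP replicate 1 and 9.7 to 14.8 in replicate 2. First by mean rank was a region of 154 bp at chromosome 6, 69516386 to 69516539, inside the immunoglobulin kappa locus Igk, where antibody light chains are encoded, with folds of 27 and 14.8. Next came chromosome 1, 95451926 to 95452244, 116641 bp from Fam174a, with 28.4 and 14.3. Replicate 1 put them at rank percentiles 1.32 and 1.05, and replicate 2 at 9.17 and 10.1. Chromosome 2, 27043589 to 27043813, 15588 bp from Slc2a6, a glucose transporter family gene, had 13.5 and 12.5. Chromosome 11, 61104406 to 61104563, 21719 bp from Tnfrsf13b, a receptor of B cells, had 15.3 and 12.7. A region 87063 bp from Sdk1, which encodes a synaptic adhesion protein, had 13.4 and 13.1, and its summits were 5 bp apart.

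The other 5 of the 10 strongest lay near Sh3bp4 (15.4 and 11.4), Gm9733 (18.2 and 11.1), Atp8b1, a phospholipid flippase gene (13.4 and 11.6), Ube2q2 (19.3 and 9.7) and Cript, which encodes a postsynaptic protein (10.9 and 11). At Atp8b1 and Cript the control summits were 0 and 1 bp apart. For all 10 the nearest AAV-Cre peak was between 10235 and 234269 bp away. Among regions inside a non-coding gene, the strongest after those at Igk, Gm30866 (near Sdk1) and Gm30421 (near Cript) lay in Morrbid, an lncRNA gene known from myeloid cells (16.3 and 10.6), and in Gm36709 (12.2 and 10.7).

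Control-only regions lay farther from genes than intergenic regions with a peak in all 4 libraries. The median distance to the nearest protein-coding gene was 43879 bp (quartiles 14374 and 134253), against 28819 bp (9464 and 80275) for intergenic regions shared by all 4 libraries. Regions shared by the controls and 1 AAV-Cre library were between, at 35849 bp. Cre-only regions had a median of 51902 bp. Regions with a peak in 1 library only had medians of 52413 bp for AAV-GFP replicate 1, 37371 bp for AAV-GFP replicate 2, and 48498 and 57347 bp for AAV-Cre. Thus 4 of these 5 other kinds of region lay farther out than control-only regions, and those of AAV-GFP replicate 2 alone lay nearer. Of the control-only regions 19.1% lay within 10 kb of a gene and 31.4% beyond 100 kb, against 25.8% and 20.6% of shared regions. The 5 farthest lay in 1 interval of 4511094 bp on chromosome 18 between Celf4, which encodes a neuronal RNA-binding protein, and Pik3c3. They were 1637934 to 2192977 bp from the nearest gene, and their folds ran from 3.73 to 6.99 in AAV-GFP replicate 1 and from 4.72 to 5.82 in replicate 2.

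**Figure D3:**
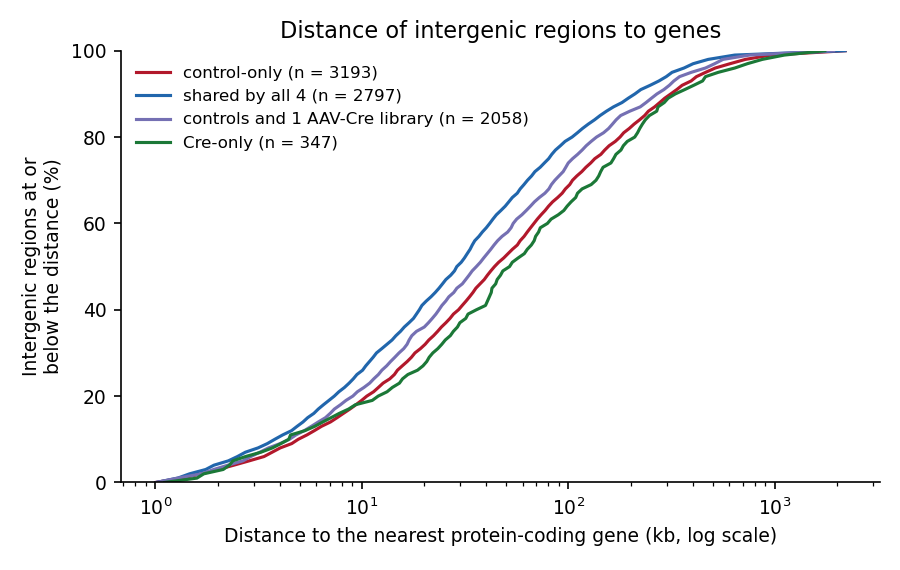
Cumulative share of intergenic regions (y axis, %) by distance to the nearest protein-coding gene (x axis, kb, log scale) for control-only regions, regions shared by all 4 libraries, regions shared by the controls and 1 AAV-Cre library, and Cre-only regions, with n in the key. At 50% the curves stand in the order shared (28819 bp), controls and 1 AAV-Cre library (35849 bp), control-only (43879 bp) and Cre-only (51902 bp).

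Gene deserts, here intervals over 500 kb between neighbouring genes, held the fewest regions per Mb of both kinds. The interval classes were up to 20 kb, 20 to 100 kb, 100 to 500 kb and over 500 kb. In this order there were 2.84, 3.26, 3.07 and 1.41 control-only regions per Mb. Shared regions had 3.86, 3.61, 2.71 and 0.818 and fell at every step, while control-only regions were densest from 20 to 100 kb. The share of control-shared regions without an AAV-Cre peak thus ran from 30.7% in the shortest to 47.4% in the longest intervals, with 35.5% and 39.4% between. No side of a gene was favoured: where RefSeq gave a strand, 49.9% of 2470 control-only regions lay upstream of the nearest gene and 47.7% of 2184 shared regions. At the inner edge of the rule stood regions 1003 bp from Tuft1 (folds 3.42 and 5.84), 1022 bp from Cd300lg (8.14 and 9.17) and 1024 bp from Agbl5 (3.73 and 3.01). Just outside it were control-only regions 1000 bp from Apoc1 (4.16 and 4.66), 992 bp from Ap1m2 (8.2 and 3.73) and 975 bp from Fgfr3 (5.34 and 4.35).

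**Figure D4:**
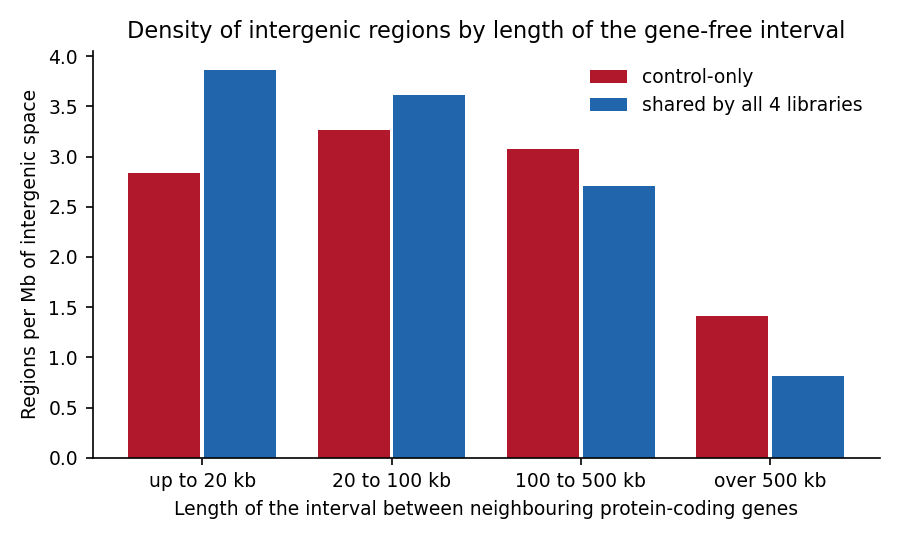
Regions per Mb of intergenic space (y axis) in intervals between neighbouring protein-coding genes, by interval length (x axis), for control-only regions and regions shared by all 4 libraries; bars are single counts divided by length, with no replicates. Shared regions are denser in the shortest class (3.86 against 2.84) and control-only regions in the longest (1.41 against 0.818).

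Along the chromosomes the regions were spread widely. Every autosome held between 69 and 241, or 1.82 to 3.2 per Mb of intergenic space, with the highest densities on chromosomes 11 (3.2) and 9 (3.18) and the lowest on 14 (1.82). Chromosomes 11 and 9 also led in intergenic regions shared by all 4 libraries, with 3 and 2.77 per Mb. The share of control-shared regions that were control-only varied little, from 35.4% on chromosome 17 to 44.3% on chromosome 3, so no single chromosome carried the pattern.

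How often the regions lay near each other was between the values of other kinds of intergenic region. Of the control-only regions 958 (30%) had another within 50 kb, against 1022 of 2797 (36.5%) among intergenic regions shared by all 4 libraries. The share was 26.1% for regions of the controls and 1 AAV-Cre library, 57% for AAV-GFP replicate 1 alone, 16.1% for AAV-GFP replicate 2 alone and 4.61% for the 347 Cre-only regions, and these kinds differ in number. With lists of equal length it was 9.79% for control-only regions, and without AAV-GFP replicate 2 it was 66.6%. Linked at gaps of up to 50 kb they formed 410 chains of 2 or more, and 2235 stood alone. There were 9 chains of 5 or more regions, against 20 such chains of shared regions. From a control-only region the nearest region open in all 4 libraries, at any position, was a median of 57850 bp away. Of the control-only regions 386 (12.1%) had one within 10 kb. These distances have no other kind of region beside them, so they do not say whether control-only regions stood apart.

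The largest chain filled the space between Hrh1, the histamine H1 receptor gene, and Atg7, a gene of autophagy. It held 13 control-only regions on chromosome 6 from 114494513 to 114619333, with no annotated gene of any class inside. The 124821 bp held 55 regions in all, of which 10 were open in all 4 libraries and 13 in the controls and 1 AAV-Cre library. The AAV-Cre libraries had peaks at 18 and 20 of the 55. The members had low folds, from 2.88 to 6.7 (median 3.5) in AAV-GFP replicate 1 and from 3.04 to 6.88 (3.71) in replicate 2. Their median rank percentiles were 70 and 59, against 47.4 and 66 for all control-only intergenic regions. By rank they were thus weaker than these in replicate 1 but not in replicate 2. The chain thus lay among many peaks of the other libraries and not in a block that was empty after AAV-Cre.

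**Figure D5:**
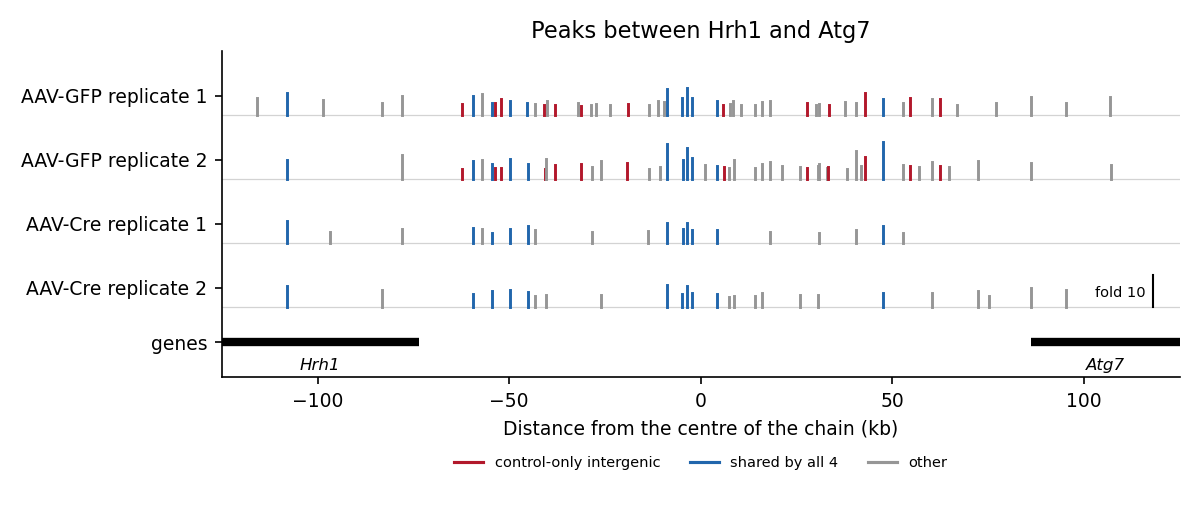
Peaks between Hrh1 and Atg7 in each library (rows), by distance from the centre of the chain (x axis, kb); the height of a line is the authors' fold enrichment (scale bar, fold 10), and black bars are gene bodies. The 13 control-only intergenic regions are red and lie among regions open in all 4 libraries (blue) and other regions (grey).

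Other chains were smaller, and 1 of the 4 named next had no region that was open in all 4 libraries. Between Cstad and 1700001O22Rik on chromosome 2 (30685161 to 30760537), 7 control-only regions stood among 18, with 3 open in all 4 libraries and median folds of 5.13 and 4.09. Between Ankrd34c and Rasgrf1, an imprinted gene for a Ras exchange factor, 7 stood among 12 on chromosome 9 (89783276 to 89892026), with 3 open in all 4 libraries and median folds of 5.9 and 5.18. A chain of 5 between Glce and Spesp1 (chromosome 9, 62190587 to 62256537) held 9 regions and none that was open in all 4 libraries. Its median folds, 6.12 and 5.92, were higher than those of the larger chains. The last, of 5 between Rmi1 and Slc28a3 on chromosome 13 (58426012 to 58501458), held 11 regions, 1 of them open in all 4 libraries, with median folds of 5.2 and 4.59.

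The regions had 2234 different nearest genes, of which 1612 were nearest to 1 region and 11 to 6 or more. Hrh1 led with 9 regions of the 22 control-shared intergenic regions nearest to it. Galr1, a galanin receptor gene, had 8 of 12, and Zfp608, a zinc finger gene, 8 of 20. The Galr1 regions lay 1190 to 561102 bp away, with folds from 3.31 to 7.67 in AAV-GFP replicate 1 and 4.02 to 6.35 in replicate 2. Sox2, a transcription factor of neural progenitors and glia, had 7 of 8, and no intergenic region nearest to it was open in all 4 libraries. The Sox2 regions lay 7026 to 450730 bp from the gene, and 2 of them fell in the lncRNA gene Sox2ot. Their folds were 3.88 to 8.86 in AAV-GFP replicate 1 and 3.7 to 8.99 in replicate 2.

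Next by number of control-only regions were genes that mostly flank long deserts. Nova1, a neuronal splicing factor gene, had 7 of 12, Bod1l 7 of 12, and Stxbp6, which encodes a SNARE-binding protein, 7 of 9. Tle4, a corepressor gene, had 6 of 8, Gm46911 6 of 10 and Tpra1 6 of 13. For Nova1 all 7 lay downstream of the gene and for Bod1l all 7 upstream. Khdrbs3 also had 6 and was not among the 10, since ties went to the better rank. None of the 10 genes was nearest to a Cre-only intergenic region. The 347 Cre-only regions had only 329 nearest genes among 20665 protein-coding genes, so nearly all genes lack one. For 8 of the 10, all but Hrh1 and Tpra1, the interval length taken for the gene was between 1.1 and 1.62 Mb. It is 1 value per gene, and not all regions of a gene lay in 1 interval. The 2 regions downstream of Stxbp6 lay in an interval of 247289 bp, the 5 upstream in one of 1622776 bp. Sox2 (3 upstream, 4 downstream) and Tle4 (3 and 3) also had regions on both sides. The background share for all intervals over 500 kb was 47.4%, as given above, and it does not cover regions in shorter intervals.

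Genes of PVH peptides were nearest to 9 of the 3193 control-only regions, at 7 of 22 listed genes, and to 3 of the 347 Cre-only intergenic regions. The 9 regions were 45% of the 20 control-shared intergenic regions near the list, against 39.7% over all genes. The region nearest to Sst, the somatostatin gene, lay 7582 bp upstream (7.96 and 7.16), but an AAV-Cre peak lay 382 bp from it. At Scg2, a granin gene, the region was 18491 bp upstream (8.39 and 6.88). Pdyn, the dynorphin precursor gene, had one 11255 bp downstream (5.43 and 6.37) and Trh, the thyrotropin-releasing hormone gene, one 41930 bp upstream (6.99 and 5.29). The Cartpt regions lay 55549 bp (6.03 and 5.18) and 117368 bp (4.28 and 5.89) downstream of this appetite peptide gene. Pthlh had regions at 17831 bp (4.66 and 4.99) and 72090 bp (5.59 and 5.82), and Vgf had 1 at 12602 bp (4.47 and 5.29). The regions at Scg2 and Sst were the best ranked of these, with mean ranks of 36.9 and 29.1, and the others stood past 50.

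Transcription factors of the PVH lineage were nearest to 4 control-only regions of 10 control-shared ones (40%), and to no Cre-only intergenic region. Foxp1 had one 83997 bp away (8.66 and 8.99), with the nearest AAV-Cre peak 186996 bp off. Tbx3 had one at 172684 bp (9.11 and 5.29), Pou3f2, a factor needed for PVH neuroendocrine neurons, one at 6700 bp (5.41 and 4.59), and Pou3f1 one at 256460 bp (5.93 and 4.99). Of these 4 only the Foxp1 region ranked in the stronger part of both control lists, at percentiles 26.3 and 27.4. Otp and Sim1 were not the nearest gene of any control-only intergenic region.

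Melanocortin and energy balance genes were nearest to 11 control-only regions of 24 control-shared ones (45.8%), and to 2 Cre-only intergenic regions. Irs2, an insulin signalling gene, had 4, from 19008 to 113337 bp downstream, of which the best ranked had folds of 7.18 and 6.63. Ntrk2, the receptor gene for BDNF, had 3, the best ranked of them 155175 bp downstream (8.83 and 7.1). Mc4r had 1, 108263 bp away (4.66 and 5.82), and its mean rank of 68.2 was the weakest of the 11. Gnas had 1 at 77629 bp (7.31 and 6.91), and the convertase genes Pcsk1 and Pcsk2 had 1 each (7.92 and 4.76 at Pcsk1, 5.59 and 6.88 at Pcsk2).

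Of the wider lists, 2 had shares above the 39.7% over all genes. Cadherins, protocadherins and other adhesion genes were nearest to 49 control-only regions of 76 control-shared ones (64.5%), at 25 of 63 genes, among them Ncam1 with 5 and Pcdh7 and Pcdh18 with 4 each. Regions near adhesion genes lay a median of 365979 bp away and had a median mean rank of 62.8, that is, in the deserts and at the low strength where the share is higher for all genes. Developmental homeobox and patterning genes had 53 of 95 (55.8%), at 25 of 74 genes, led by Sox2, Bcl11a with 5 and Pax3 and Tshz1 with 4 each. Their median distance was 204310 bp and their median mean rank 60.7. The part of distance and strength in these shares was not tested.

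Of the cell type lists, 4 had shares below the background of 39.7% and 2 above it. The counts were small, from 0 of 3 to 13 of 38, so the side on which a list fell says little about a cell type. Neuronal genes had 13 of 38 (34.2%), with 5 at Celf4 and 3 at Syt1, a synaptic calcium sensor gene. Astrocyte genes had 11 of 34 (32.4%), with 3 each at Gli3 and Id4, and oligodendrocyte lineage genes 5 of 13 (38.5%), with 3 at Olig1. The region 3685 bp from Cldn11, a myelin tight junction gene, had the best mean rank of the oligodendrocyte regions, at folds of 13.6 and 8.23. Endothelial and mural genes had 5 of 11 (45.5%), 3 of them nearest to Cdh5, and microglial genes 0 of 3. The short list of PVH neuron markers had 2 of 4 (50%), the Pou3f2 and Trh regions given above.

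Non-coding genes of any class overlapped a smaller share of control-only regions than of regions shared by all 4 libraries. Any RefSeq non-coding gene overlapped 691 control-only regions (21.6%), against 31.5% of intergenic regions shared by all 4 libraries and 19.9% of Cre-only ones. For lncRNA genes the shares were 19.8% of control-only and 27.5% of shared regions. They were 25.1% for regions of the controls and 1 AAV-Cre library and 18.4% for Cre-only ones. Transfer RNA genes, which are read by RNA polymerase III, overlapped 16 control-only regions (0.501%) and 46 shared ones (1.64%). They overlapped 0.632% of the regions of the controls and 1 AAV-Cre library and no Cre-only region.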

How the data were processed

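ATAC-seq of mouse PVH gave 4 libraries, 2 AAV-GFP and 2 AAV-Cre, grouped by their titles. The tools Trim Galore, FastQC, Bowtie2 and MACS2 and the build mm10 are named per the submitters' processing notes. Versions, settings, a shift for the transposase and the meaning of "sub" in the library lists' peak names are not stated there. The authors deposited 1 peak list per library and 1 per group, whose peak names mark a pool. Each peak has the authors' fold, a ratio of summit signal to background, and the authors' −log10 p and −log10 q, and the deposited score restates −log10 q, times 10 and cut to an integer. The lowest −log10 q was 1.3 to 1.31. Peaks were ranked within a list by −log10 p. Folds describe peaks within a list, and folds of different lists stand side by side as values without a comparison.

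Peaks of the 4 library lists sharing 1 bp were merged on chromosomes 1 to 19 with Python 3.11.15 and pandas 2.3.3. Gene bodies of 20665 protein-coding genes, non-coding genes and promoter windows came from RefSeq tables of GRCm38.p6. The code was tested on simulated peak lists. No test was made: the rule used the contrast, regions are not replicates, and 2 against 2 libraries give an exact p of at least 0.333. Intergenic space was counted between the outermost genes of a chromosome. The members, gene lists (11 with 286 entries, 277 on these chromosomes) and the regions named were chosen with earlier results of these data known. Named by rule were the 10 strongest, the 5 farthest, the 5 largest chains, the 10 genes with most regions, all regions nearest to the PVH and melanocortin lists and the strongest in non-coding genes; the printed sequences, the miR-344 cluster and examples from the other lists were picked after values were seen.

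Alternatives were equal list length, a stricter q, merging at 500 bp, stricter overlap, other gene margins, all gene classes, each replicate left out, the authors' group lists and other linking distances.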

Additional observations from a re-analysis of the deposited data

How the results depend on the processing

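Most values depended on list length and on how many libraries had to hold or lack a peak. With each list cut to its 23384 strongest peaks, 919 regions were control-only, 22.5% of control-shared ones, at a median of 38312 bp from genes, 9.79% of them within 50 kb of another and with a median rank of 36.9. Of the 3193 regions, 2336 had a control peak below that cut, and 709 regions were then Cre-only. Cutting lists to 1 length draws the counts together by construction. At a −log10 q of at least 5 the values were 2106, 41.9%, 39464 bp, 21.5% and 40.4. The authors' group lists gave 5270. A required overlap of AAV-Cre peaks by 50% of the narrower peak gave 43.2% and 32.9% within 50 kb. Margins of 5 and 10 kb gave distances of 56825 and 66818 bp, by construction, and 10 kb gave 41.2%. A margin to every RefSeq gene gave 42.7% and 26.2%. Linking at 20 and 100 kb gave 17.6% and 43.2%. Without a replicate the count was 3905 to 13296, the highest without AAV-GFP replicate 2, the share 46.9% to 67.3%, the distance 41655 to 50095 bp, the share within 50 kb 35.9% to 66.6% and the rank 54.5 to 70.1. The cause of moves other than those by construction was not tested. Merging peaks up to 500 bp apart gave 3152 regions, and the 4 other values stayed within their 95% intervals.

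No paired analysis was possible because the results come from no test; with the replicate block the count was 3193, the same by construction, with 39.7%, 43879 bp, 30% and 57.5.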

Other observations

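On the sex chromosomes, which the rule leaves out, 71 of 158 control-shared intergenic regions on X and 17 of 35 on Y had no AAV-Cre peak, and 3 and 1 intergenic regions were Cre-only.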
